A study of Homo sapiens with 12 samples.

Results

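The comparison described here asks where the response to prexasertib differs between COV362 and PEO1, 2 established cell lines derived from human high-grade serous ovarian cancer. Its measure, for each gene, is the log2 fold change with prexasertib in PEO1 minus the log2 fold change with prexasertib in COV362, called the difference of responses below. It needs all 4 groups and so uses 12 of the 12 libraries: COV362 with DMSO vehicle, COV362 with 20 nM prexasertib, PEO1 with DMSO vehicle and PEO1 with 20 nM prexasertib, each with replicates A, B and C. The labels call all samples parental and name no genetic change, the treatment time is not given, and nothing says whether the replicates came from separate cultures, so a p-value reflects no more than how far libraries of a group lie apart, which may be technical. Each group rests on 1 established line grown in serum and insulin, so a difference between the groups is a difference between these lines.

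Prexasertib inhibits CHK1 and, less strongly, CHK2, the kinases that hold back origin firing and mitotic entry when replication is disturbed. Cells that lose CHK1 activity accumulate replication stress and DNA breaks. Stressed cells are known to switch on immediate early genes through AP-1, inflammatory genes through NF-kB, interferon-stimulated genes through cytosolic nucleic acid sensing, and p53 target genes where p53 works. In bulk RNA a change in the number of cells of a state and a change of RNA per cell cannot be told apart.

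Total counts ran from 9390790 to 18262805 per library, and 14498 of the 26485 genes in the table passed the filter on low counts. The lines kept distinct profiles: CDH1, which encodes E-cadherin, stood at 0.346 CPM (the count scaled to library size) in COV362 with DMSO and at 114 in PEO1, the epithelial regulator GRHL2 at 0 and 83.0, and PAX8, a transcription factor of the Müllerian lineage, at 103 and 144. SOX17, another factor of that lineage, was at 0 in PEO1. In the list of 12 immune markers PTPRC lay at 0.0183 CPM or below and MS4A1 at 0 in each group, and the summed level of 31.3 to 63.0 CPM per library came mainly from CD68. Among the 12 fibroblast and endothelial markers LUM was at 0 and DCN at 0.0733 CPM or below in each group. The summed level of those 12 was 96.3 to 107 CPM in COV362 with DMSO and 64.0 to 68.9 with prexasertib. In PEO1 the sum was 224 to 299 with DMSO and 61.2 to 80.7 with prexasertib. It was mostly THY1 in PEO1 and mostly the endothelial cadherin CDH5 in COV362 (73.9 CPM with DMSO and 45.2 with prexasertib). CDH5 had a called difference of responses of -1.34, which held in 10 of 12 fits that left out 1 library. The part of this summed level in the results was not tested. Within every group library A leaned towards short genes (Spearman's rho across genes between exon length and the log2 level relative to the group mean of -0.41 to -0.35). The other libraries ran from -0.05 (PEO1 prexasertib C) to 0.44 (COV362 DMSO B). Library C of PEO1 was at 0.32 with DMSO and at -0.05 with prexasertib.

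The difference of responses passed an adjusted p of 0.05 in edgeR's quasi-likelihood test, with Benjamini-Hochberg adjustment, for 885 genes, which is 6.10% of those tested. It was positive, so the response was higher in PEO1, for 455 genes (3.14%) and negative for 430 (2.97%). At least 2-fold differences made up 296 of the positive calls and 288 of the negative ones, and at least 4-fold differences 96 and 41. An unadjusted p below 0.05 was reached by 3650 genes. In the same fit prexasertib changed 4249 genes in PEO1 (29.3%), of which 2136 rose (14.7%) and 2113 fell (14.6%), and 120 in COV362 (0.828%), of which 88 rose (0.607%) and 32 fell (0.221%). The median standard error of a log2 fold change was 0.228 in each line. The fit takes a common spread per gene for all groups, so these errors do not compare the noise of the lines. The median absolute log2 fold change was 0.44 in PEO1 and 0.21 in COV362.

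Most of the genes were called in PEO1 and not in COV362, which does not show that COV362 lacked a response. Of the 885 genes, 810 had such calls, with 404 rising and 406 falling in PEO1. The fitted COV362 change had the same sign in 424 of these and was smaller than 0.5 on the log2 scale in 700. A further 26 were called in both lines in the same direction with the larger change in PEO1, and 0 with the larger change in COV362. Only 8 were called in COV362 and not in PEO1, and 36 were called in neither line on its own. Finally, 5 genes (0.0345% of those tested) were called in both lines in opposite directions. The larger absolute change was in PEO1 for 831 of the 885 genes. The fitted changes of the lines had opposite signs in 434 of the 885, mostly with a small COV362 change beside a large PEO1 change.

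**Figure D1:**
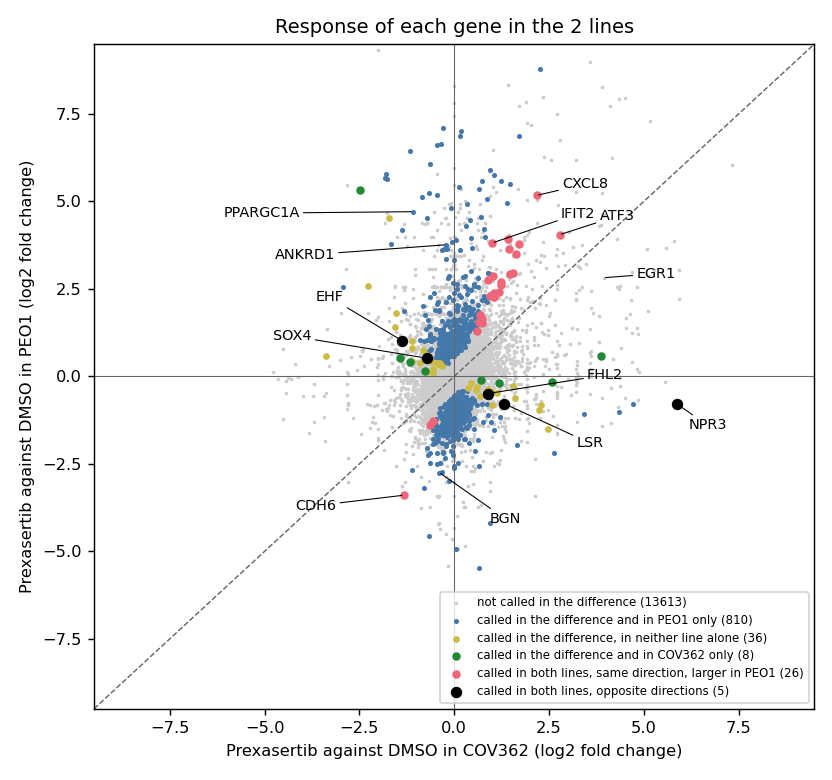
Log2 fold change with prexasertib in COV362 (x axis) against that in PEO1 (y axis) for each tested gene, coloured by the calls in each line and in the difference; the dashed line marks equal responses and 1 gene lies outside the axes. Called genes spread along the y axis, with 810 called in PEO1 only, and the 5 opposite genes lie in the upper left and lower right parts of the plot.

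The calls depended on single libraries. With 1 library left out, the count of 885 became 328 without PEO1 DMSO A, 353 without PEO1 prexasertib B, 379 without COV362 prexasertib C, 388 without PEO1 DMSO C, 390 without COV362 DMSO B, 406 without PEO1 prexasertib A, 419 without PEO1 DMSO B and 465 without COV362 DMSO C. It became 591 without PEO1 prexasertib C, 605 without COV362 prexasertib A, 1279 without COV362 DMSO A and 1756 without COV362 prexasertib B. Of the 885 genes, 325 (36.7%) kept their call without PEO1 DMSO A, the fewest, and 862 (97.4%) without COV362 prexasertib B, the most. In each of these 12 fits, none of the 885 genes that kept its call changed sign. A kept call leaves little room for a change of sign, and genes that lost their call were not part of that count. The genes described with library values below were called in all 12 fits unless it is said otherwise.

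The genes that rose in 1 line and fell in the other were EHF, SOX4, LSR, FHL2 and NPR3. EHF encodes an ETS transcription factor of epithelial cells. It stood at 6.78, 11.2 and 7.56 CPM in the COV362 DMSO libraries (A, B and C in that order, as in all sentences below) and at 2.70, 4.26 and 3.002 with prexasertib. In PEO1 EHF went from 48.6, 55.6 and 54.6 CPM to 98.4, 125 and 97.7. So the treated libraries lay below the DMSO libraries in COV362 and above them in PEO1, with no overlap in either line. Among all tested genes, 50.1% had no such overlap in PEO1 and 14.5% had none in COV362. The EHF response was -1.37 ± 0.23 (log2, SE, n = 3 and 3) in COV362 (edgeR adjusted p = 0.0106) and 1.02 ± 0.19 in PEO1 (adjusted p = 0.00149). The difference was 2.38 ± 0.29 (95% interval 1.75 to 3.02, edgeR adjusted p = 0.000915).

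SOX4, an SRY-related transcription factor, moved the same way as EHF. Its COV362 values were 108, 143 and 107 CPM with DMSO and 68.3, 78.7 and 69.0 with prexasertib. In PEO1 they were 21.997, 21.01 and 23.98 with DMSO and 36.3, 29.3 and 30.5 with prexasertib. The groups of each line were again apart. The difference for SOX4 was 1.25 ± 0.21 (edgeR adjusted p = 0.00555), from -0.73 in COV362 and 0.52 in PEO1.

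LSR, a receptor of tricellular tight junctions, went the other way. It read 2.54, 3.94 and 5.15 CPM in COV362 with DMSO and 9.09, 8.02 and 12.7 with prexasertib. The PEO1 readings of LSR were 75.9, 65.7 and 72.3 with DMSO and 37.9, 35.7 and 50.8 with prexasertib. Every treated library was higher in COV362 and lower in PEO1. The fitted LSR responses were 1.32 ± 0.25 (edgeR adjusted p = 0.0238) and -0.78 ± 0.21 (adjusted p = 0.0142), and their difference was -2.10 ± 0.33 (adjusted p = 0.00424).

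FHL2 encodes a LIM-domain cofactor of several transcription factors. It rose in COV362 from 27.3, 23.0 and 30.8 CPM to 49.96, 46.8 and 52.7. It fell in PEO1 from 255, 257 and 233 CPM to 195, 157 and 178. No treated FHL2 library overlapped the DMSO libraries of its line. The difference was -1.37 ± 0.19 (edgeR adjusted p = 0.00205). NPR3, the natriuretic peptide clearance receptor, had 0 counts in COV362 with DMSO and 21 counts over the prexasertib libraries, so its COV362 call rests on few reads. In PEO1 NPR3 fell from 23.3, 24.9 and 23.2 CPM to 12.04, 15.8 and 13.3. A call in both lines is asked of these genes, and over the 12 fits with 1 library left out FHL2 kept it in 11, EHF and LSR in 10, and SOX4 and NPR3 in 2. Without COV362 prexasertib C none of the 5 kept it, without COV362 DMSO B FHL2 alone did, and in the 6 fits without a PEO1 library SOX4 and NPR3 did not. The SOX4 difference itself was called in all 12 fits. A looser reading asked for an unadjusted p below 0.05 in each line and in the difference. Under that reading, 116 of the 14498 tested genes had fitted changes in opposite directions. It makes no adjustment for the number of genes tested, so the 116 are not calls.

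**Figure D2:**
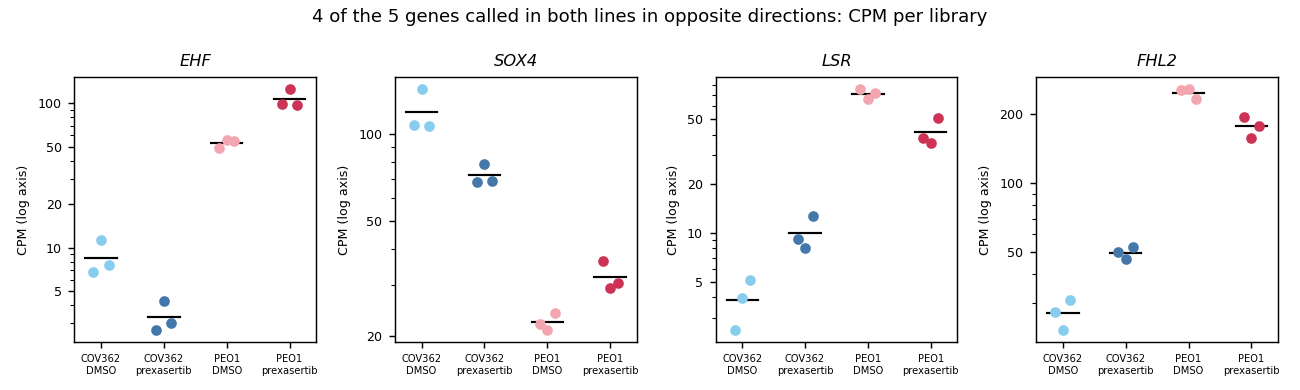
CPM of EHF, SOX4, LSR and FHL2 in each library (points, log axis) with the group mean (bar), in 4 groups of 3 libraries. EHF and SOX4 are lower with prexasertib in COV362 and higher in PEO1, while LSR and FHL2 are higher in COV362 and lower in PEO1.

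Among the 26 genes that moved the same way in both lines with a larger change in PEO1, 23 rose and 3 fell. The largest of these differences was that of CXCL8, which encodes interleukin-8, a chemokine for neutrophils and a target of NF-kB and AP-1. A stretch of its promoter is shown because it holds a match to each of those factors' motifs, which are written in capitals (AP-1 first, then NF-kB), as RefSeq gives it for GRCh38.p14 on the plus strand at chr4:73740319-73740505. The motif matches lie 137 to 131 and 91 to 83 bases before the RefSeq start.
CXCL8: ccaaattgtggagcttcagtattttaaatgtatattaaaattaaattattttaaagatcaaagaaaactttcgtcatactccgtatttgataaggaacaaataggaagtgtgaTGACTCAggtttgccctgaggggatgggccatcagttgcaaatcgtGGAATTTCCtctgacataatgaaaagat

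CXCL8 went from 8.11, 12.5 and 13.3 CPM to 38.9, 61.1 and 55.5 in COV362 with prexasertib. In PEO1 it went from 10.97, 17.3 and 20.6 to 664, 526 and 576. The DMSO levels of the lines overlapped and the treated levels did not. The rise was 4.52-fold in COV362 and 36.1-fold in PEO1, and the log2 difference was 2.997 ± 0.34 (edgeR adjusted p = 0.000458).

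Interferon-stimulated genes were the next group. IFIT2, an RNA-binding antiviral protein, rose from 54.7, 70.4 and 58.7 CPM to 104, 146 and 120 in COV362 and from 28.3, 34.0 and 32.2 to 454, 445 and 430 in PEO1. PEO1 thus began below COV362 and ended above it. The difference for IFIT2 was 2.81 ± 0.21 (edgeR adjusted p = 1.02e-05). RSAD2, which encodes viperin, rose in PEO1 from 15.7, 24.5 and 20.0 CPM to 322, 322 and 311. The COV362 values of RSAD2, 9.07, 12.5 and 12.6 with DMSO and 15.2, 24.2 and 21.5 with prexasertib, did not overlap, but that change was not called (edgeR adjusted p = 0.0716). Its difference was 3.17 ± 0.28 (adjusted p = 5.95e-05). OASL rose in both lines, by 1.02 in COV362 and 2.86 in PEO1, and IFIT3 by 1.04 and 2.39, with differences of 1.84 ± 0.22 and 1.35 ± 0.27.

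In all, 11 of the 34 tested members of the interferon list were called in the difference (32.4%, against 6.10% of all tested genes), 8 higher and 3 lower in PEO1. The higher ones were IFIT1, IFIT2, IFIT3, OASL, OAS2, RSAD2, CXCL10 and CXCL11. The lower ones were IRF1, IFI27 and IFI35, of which IFI35 fell in PEO1 from 36.8, 31.2 and 31.4 CPM to 17.3, 15.7 and 15.4 with a difference of -1.23 ± 0.25 (edgeR adjusted p = 0.0146). The list median of the difference was 0.12, beside 0.03 over all tested genes, and called members lay on both sides of 0. Leaving out single libraries, 5 of the 8 and 1 of the 3 kept their call in all 12 fits: IFIT2, IFIT3, OASL, RSAD2, CXCL10 and IFI35. CXCL11 had 0 counts in PEO1 with DMSO and read 3.93, 3.35 and 3.14 CPM with prexasertib, and its call held in 4 of the 12 fits.

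CXCL10, a chemokine induced by interferon and NF-kB, was a low-count gene that held its call. It read 2.66, 2.03 and 2.54 CPM in COV362 with DMSO and 2.62, 4.63 and 4.41 with prexasertib, which overlap. In PEO1 CXCL10 went from 0.261, 0.217 and 0.0550 CPM, 9 counts over the group, to 4.64, 4.95 and 3.20. The difference was 3.84 ± 0.60 (edgeR adjusted p = 0.00424). Its promoter is shown for its interferon element and NF-kB matches, in capitals in that order, from RefSeq, GRCh38.p14, minus strand, chr4:76023537-76023747. These matches begin 221 and 176 bases before the RefSeq start.
CXCL10: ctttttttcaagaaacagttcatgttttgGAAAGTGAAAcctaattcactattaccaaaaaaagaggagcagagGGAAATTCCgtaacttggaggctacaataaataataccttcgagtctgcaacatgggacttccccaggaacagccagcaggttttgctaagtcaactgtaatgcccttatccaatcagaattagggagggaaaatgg

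The inflammatory NF-kB list had 6 of 25 tested members called, 4 higher and 2 lower (24%, against 6.10% of all genes), with a median difference of 0.37. CCL5, a chemokine for T cells and monocytes, read 3.39, 4.11 and 5.21 CPM in COV362 with DMSO and 12.6, 8.82 and 8.95 with prexasertib. In PEO1 CCL5 went from 0.131, 0.651 and 0.0550 CPM to 19.7, 11.3 and 11.3. COV362 moved by 1.24 ± 0.38, which was not called, and PEO1 by 5.58 ± 0.51, so the difference of 4.34 ± 0.64 (edgeR adjusted p = 0.00351) rests on a PEO1 DMSO group of 15 counts. TNFAIP3, which restrains NF-kB, and SOD2 were also higher, by 1.39 and 0.75, and CSF1 and CCL2 were lower, by -1.03 and -2.05. Those of CCL5 and CXCL8 alone held in all 12 fits with 1 library left out. For TNFAIP3 the adjusted p rose to 0.102 without PEO1 prexasertib B and the call held in 3 of 12 fits. NFKB2 and ICAM1 rose in both lines and were not called in the difference, with values of -0.43 (95% interval -0.80 to -0.06, edgeR adjusted p = 0.142) and -0.24 (-0.93 to 0.44, adjusted p = 0.678).

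**Figure D3:**
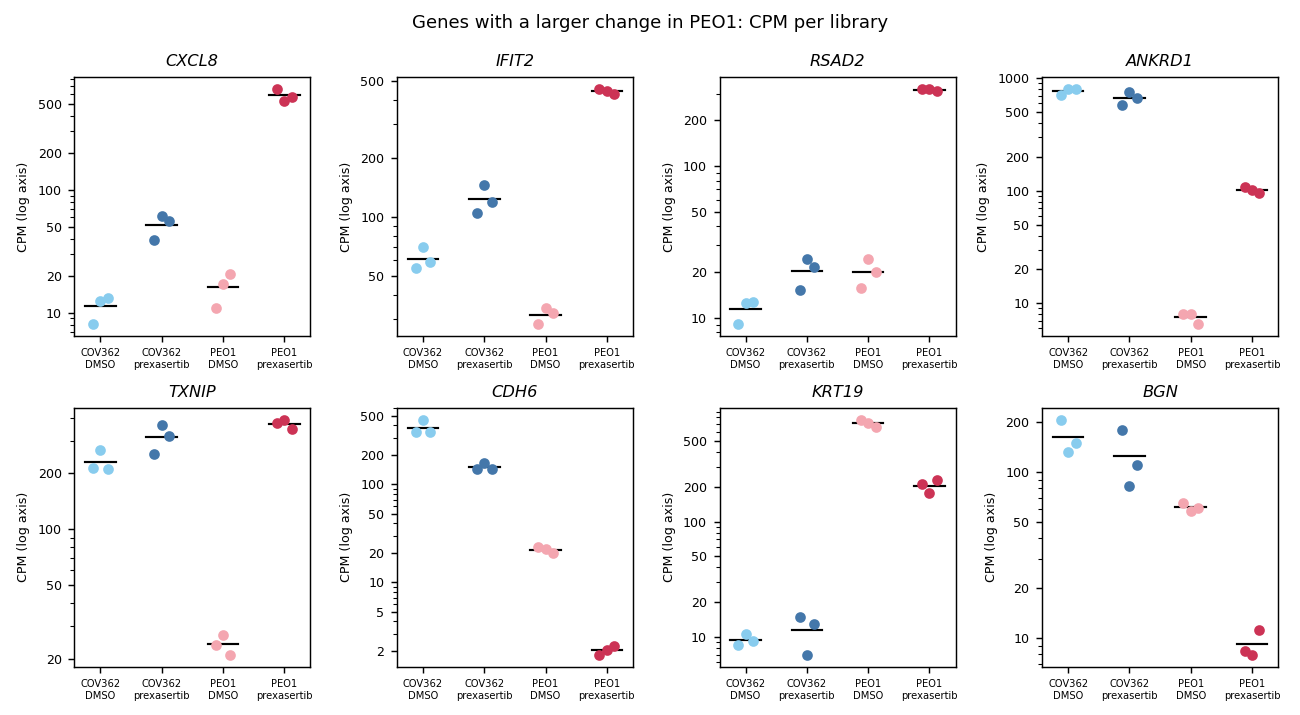
CPM per library (points, log axis) and group mean (bar) of 8 genes whose change was larger in PEO1. CXCL8, IFIT2, RSAD2, ANKRD1 and TXNIP are higher with prexasertib in PEO1, with CXCL8 reaching 526 to 664 CPM there against 38.9 to 61.1 in COV362, while CDH6, KRT19 and BGN are lower.

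Immediate early genes leaned to PEO1. Of 32 tested members of the AP-1 and immediate early list, 23 rose in PEO1 and 7 in COV362, beside 14.7% and 0.607% of all tested genes. In the difference 7 were called, all of them higher in PEO1 (21.9% of the list, against 3.14% of all genes in that direction). The median difference was 0.42. FOS, an AP-1 subunit, went from 1.09, 1.26 and 1.43 CPM to 4.83, 4.20 and 3.53 in COV362 and from 1.96, 3.75 and 2.47 to 43.2, 33.4 and 37.4 in PEO1. The difference for FOS was 2.09 ± 0.37 (edgeR adjusted p = 0.00738). FOSB, its paralogue, went from 2.54, 1.86 and 2.15 CPM to 5.49, 5.86 and 6.36 in COV362 and from 1.76, 0.706 and 1.87 to 23.0, 15.1 and 16.3 in PEO1, a difference of 2.19 ± 0.44 (adjusted p = 0.0146). Without drug the FOS libraries of PEO1 lay above those of COV362 and the FOSB libraries of the lines overlapped. With drug every PEO1 library lay above every COV362 library in both genes.

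Among the 7, ATF3, a stress-induced transcription factor, had the largest COV362 response. It went from 15.7, 11.3 and 13.8 CPM to 99.8, 90.4 and 88.4 in COV362 and from 15.1, 13.2 and 12.2 to 263, 200 and 209 in PEO1. The difference was 1.27 ± 0.22 (edgeR adjusted p = 0.00681). DUSP1, a phosphatase that shuts off MAP kinases, and SPRY4, an inhibitor of receptor signalling, had differences of 1.38 ± 0.25 and 1.03 ± 0.19. The calls of DUSP6 and CTGF did not hold in all fits, with CTGF lost without COV362 prexasertib C, PEO1 DMSO B, PEO1 DMSO C or PEO1 prexasertib A. EGR1, the zinc-finger factor induced by growth signals, had a larger fitted change in COV362. It went from 0.363, 2.03 and 2.15 CPM to 26.1, 25.05 and 25.7 in COV362 and from 9.92, 6.79 and 7.97 to 63.5, 49.3 and 61.2 in PEO1, and its difference was -1.12 ± 0.41 (95% interval -2.01 to -0.24, edgeR adjusted p = 0.113), short of a call. EGR1 was 1 of 24 genes with a same-direction call in both lines and a larger fitted change in COV362, of which 4 had an unadjusted p below 0.05, PLBD1 and NFKB2 among them.

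Other genes of the same class have roles in growth arrest, stress and chromatin. MXD1, which opposes MYC, went from 7.14, 6.24 and 6.06 CPM to 11.5, 13.0 and 11.2 in COV362 and from 10.2, 10.5 and 11.2 to 77.9, 70.3 and 67.1 in PEO1, a difference of 1.87 ± 0.20 (edgeR adjusted p = 0.000342). GADD45A, a damage-induced arrest gene, rose in both lines with a difference of 1.39 ± 0.23 (adjusted p = 0.00498). PPP1R15A, which reverses the translation block of the stress response, rose from 65.6, 47.7 and 65.2 CPM to 171, 154 and 170 in COV362 and from 71.7, 51.5 and 54.3 to 521, 404 and 416 in PEO1. Its difference was 1.45 ± 0.23 (adjusted p = 0.00484). SAT1, an enzyme of polyamine breakdown, went from 20.1, 19.6 and 22.9 CPM to 45.0, 55.6 and 47.8 in COV362 and from 112, 103 and 88.9 to 797, 564 and 593 in PEO1, a difference of 1.44 ± 0.22 (adjusted p = 0.00392). HIST1H2BK, an H2B histone gene, read 13.2, 13.9 and 17.7 CPM and then 49.1, 29.4 and 42.6 in COV362, and 4.50, 5.27 and 4.62 and then 93.1, 64.2 and 63.3 in PEO1. Its difference was 2.51 ± 0.31 (adjusted p = 0.000915). It was the single histone of 19 called in the difference (5.26%, against 6.10% of all genes). Of the 19, 9 rose in COV362 and 13 in PEO1, beside 0.607% and 14.7% of all tested genes.

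Of the 26 genes of this class, 20 had a promoter in the RefSeq table. Among the motifs searched in them, the cyclic AMP response element TGACGTCA, bound by CREB and ATF proteins, had the highest share. It was in 4 of the 20 (20.0%, against 3.27% of 10938 tested genes with a promoter and 1.98% of all 27305 promoters). The NF-kB, E2F and C/EBP motifs were each in 10% of the 20, against 1.65%, 10.5% and 6.79% of those tested genes. The AP-1 motif and the interferon element were each in 5%, against 4.58% and 2.81%, and the CArG box was in 0, against 1.08%. No test was run on these shares, and the set is small. The windows around the 4 matches of TGACGTCA are shown with 20 bases on each side and the motif in capitals, from RefSeq, GRCh38.p14. They lie at chr6:27146930-27146977 on the minus strand, chr5:172771293-172771340 on the minus strand, chr19:48872343-48872390 on the plus strand and chr12:10212827-10212874 on the plus strand, in the order printed. GABARAPL1 encodes a protein of autophagosome membranes, and its difference of 0.90 ± 0.18 lost its call without PEO1 DMSO C or PEO1 prexasertib A. The flanks differ between the genes, and a match of these letters is a description of the sequence.
HIST1H2BK: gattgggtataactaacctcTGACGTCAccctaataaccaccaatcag
DUSP1: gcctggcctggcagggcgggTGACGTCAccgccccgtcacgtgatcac
PPP1R15A: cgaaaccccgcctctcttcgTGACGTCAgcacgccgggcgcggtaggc
GABARAPL1: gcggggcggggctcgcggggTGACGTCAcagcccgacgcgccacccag

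The genes with the largest positive differences were taken among called genes with a position on 1 chromosome and 5 CPM or more in a group of each line. PPARGC1A, NFATC2 and ZCCHC24 met that limit in PEO1 with prexasertib only, so their low PEO1 level without the drug and their rise are tied by the choice. PPARGC1A, a coactivator of mitochondrial biogenesis, read 9.07, 13.1 and 7.23 CPM in COV362 with DMSO and 2.62, 6.17 and 5.003 with prexasertib, a fitted change of -1.09 that was not called. In PEO1 PPARGC1A went from 0, 0.380 and 0.330 CPM, 13 counts over the group, to 5.93, 8.85 and 5.19. The treated levels of the lines overlapped. The difference was 5.79 ± 0.70 (edgeR adjusted p = 0.000857), and that size rests on the few PEO1 DMSO counts.

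NFATC2, a calcium-regulated transcription factor, stayed between 18.6 and 36.3 CPM in COV362 and went from 0.261, 0.326 and 0.385 to 5.46, 8.02 and 6.22 in PEO1 (difference 3.99 ± 0.42, edgeR adjusted p = 0.000295). ANKRD1, a target of YAP and TEAD, read 717, 802 and 806 CPM in COV362 with DMSO and 582, 754 and 675 with prexasertib. In PEO1 ANKRD1 went from 8.03, 8.09 and 6.54 to 109, 102 and 96.4, a 13.6-fold rise, and the difference was 3.97 ± 0.19 (adjusted p = 1.35e-07). Even after the rise PEO1 remained below every COV362 library. Of 18 tested members of the YAP and TEAD list 3 were called (16.7%, against 6.10% of all genes): ANKRD1 and CTGF were higher, F3, the tissue factor gene, was lower (-1.07 ± 0.20), and the median difference was -0.08.

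TXNIP, which binds thioredoxin and limits glucose uptake, read 214, 268 and 211 CPM and then 255, 366 and 317 in COV362, a change that was not called. In PEO1 TXNIP went from 23.8, 27.0 and 21.0 to 376, 389 and 347. The PEO1 groups were 15.5-fold apart, and the difference was 3.52 ± 0.22 (edgeR adjusted p = 2.22e-06). ZCCHC24, a zinc-finger gene, rose in PEO1 from 1.17, 1.47 and 1.87 CPM to 9.63, 6.98 and 5.55, beside 34.6, 41.0 and 40.3 and then 23.7, 23.8 and 27.0 in COV362. Its difference was 2.92 ± 0.31 (adjusted p = 0.000298). ODC1, the rate-limiting enzyme of polyamine synthesis, stood between 701 and 859 CPM in COV362 and went from 369, 373 and 337 to 1171, 1083 and 1096 in PEO1 (difference 1.48 ± 0.16, adjusted p = 0.000295). ODC1 was the single call among 26 ribosome biogenesis and MYC target genes.

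Among called genes with a position on 1 chromosome and 5 CPM or more in a group of each line, the lowest differences were those of BGN, LSR, KRT19, CDH6, CRIP2, DENND2A, CCDC74A and FAM110A. In COV362 LSR met that limit with prexasertib only, so its low COV362 level without the drug and its rise there are tied by the choice. The calls of CRIP2, CCDC74A and FAM110A held in 3, 6 and 6 of the 12 fits. BGN, the matrix proteoglycan biglycan, fell in PEO1 from 65.3, 58.4 and 60.8 CPM to 8.40, 7.91 and 11.2. In COV362 its values of 207, 132 and 150 with DMSO overlapped those of 180, 82.1 and 110 with prexasertib. The difference for BGN was -2.36 ± 0.36 (edgeR adjusted p = 0.00398). Of the 30 tested members of the epithelial-mesenchymal transition and matrix list, 6 were lower (BGN, VIM, TGFBI, SPARC, COL6A1 and COL5A1) and 1 was higher (TNC), 23.3% of the list against 6.10% of all genes, with a median difference of -0.30.

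SPARC, a secreted matrix glycoprotein, had like levels in the lines without drug. It read 529, 429 and 467 CPM and then 442, 398 and 386 in COV362, and 483, 541 and 444 and then 211, 188 and 202 in PEO1. Its difference was -1.07 ± 0.17 (edgeR adjusted p = 0.00498). TGFBI, a matrix protein induced by TGF-beta, read 122, 144 and 132 CPM and then 122, 129 and 137 in COV362, and 191, 246 and 211 and then 80.4, 81.8 and 84.3 in PEO1, a difference of -1.36 ± 0.17 (adjusted p = 0.00115). VIM, the mesenchymal filament vimentin, fell in PEO1 from 13.9, 16.2 and 12.5 CPM to 3.41, 5.93 and 4.41 and stayed between 3631 and 5010 in COV362 (difference -1.60 ± 0.26, adjusted p = 0.00556). TNC, the matrix protein tenascin C, went up in PEO1 from 7.64, 7.55 and 7.04 CPM to 11.7, 13.4 and 12.3. In COV362 TNC read 1047, 1599 and 1221 with DMSO and 706, 903 and 875 with prexasertib, apart but not called (adjusted p = 0.0700). Except for COL6A1, these 7 calls held in all 12 fits with 1 library left out.

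Epithelial genes had 9 calls among 32 tested members, 7 lower and 2 higher in PEO1 (28.1%, against 6.10% of all genes), and a median difference of -0.51. KRT19, a keratin of simple epithelia, fell in PEO1 from 764, 719 and 662 CPM to 210, 176 and 230, while COV362 held 8.47, 10.6 and 9.25 with DMSO and 14.7, 6.97 and 13.0 with prexasertib (difference -2.08 ± 0.30, edgeR adjusted p = 0.00301). KRT8 read 694, 796 and 835 CPM and then 806, 735 and 970 in COV362, and 1692, 1683 and 1706 and then 733, 784 and 848 in PEO1, so that treated PEO1 came down into the COV362 range. The difference for KRT8 was -1.21 ± 0.18 (adjusted p = 0.00392). KRT7 differed by -1.37 ± 0.28 and KRT15 by -2.40 ± 0.37. The lines differ in how much of this list they express: its summed level was 3639 to 3687 CPM in COV362 with DMSO and 3256 to 4079 with prexasertib, and 10538 to 11596 in PEO1 with DMSO and 6939 to 7472 with prexasertib. CDH1 and GRHL2, at or near 0 in COV362, give no measure of a fall there.

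CDH6, a cadherin of the developing kidney, fell in both lines. It went from 342, 456 and 341 CPM to 143, 165 and 145 in COV362 and from 22.9, 21.7 and 19.7 to 1.82, 2.03 and 2.23 in PEO1. The responses were -1.33 ± 0.14 and -3.40 ± 0.17, and the difference was -2.06 ± 0.22 (edgeR adjusted p = 0.000295). TNS3, a focal adhesion protein, also fell in both lines with a larger fall in PEO1, and its call in the difference held in 9 of the 12 fits. KRT17, an epidermal keratin, was higher in PEO1 by 1.89 ± 0.46, but that call held in 4 of the 12 fits and reached an adjusted p of 0.0951 without COV362 DMSO B. DENND2A, an exchange factor for a Rab protein, fell in PEO1 from 47.5, 35.6 and 41.1 CPM to 10.5, 7.64 and 9.54 and read 26.3, 29.4 and 27.5 and then 24.1, 22.3 and 21.8 in COV362, a difference of -1.88 ± 0.23 (edgeR adjusted p = 0.000857).

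Transcripts of the target kinases and of their partners gave small differences with intervals that span 0. CHEK1, which encodes the main target of the drug, had a difference of -0.01 ± 0.17 (95% interval -0.37 to 0.35, edgeR adjusted p = 1). CHEK2 had 0.05 (-0.49 to 0.58), WEE1, an inhibitory kinase of CDK1, -0.12 (-0.61 to 0.36), CCNE1, which encodes cyclin E, -0.32 (-0.77 to 0.14), and MKI67, a proliferation marker, 0.29 (-0.26 to 0.83). In the list of 22 ATR and CHK1 checkpoint genes 1 was called (4.55%, against 6.10% of all genes), CDC25A, a phosphatase that activates CDKs (0.73 ± 0.19), and its call held in 3 of the 12 fits.

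Among mitotic genes, the calls of CDC20 and PLK1 held in all 12 fits. CDC20, which activates the ubiquitin ligase of anaphase, read 615, 496 and 530 CPM and then 827, 646 and 775 in COV362, and 362, 330 and 327 and then 193, 182 and 216 in PEO1. Treated libraries were thus all higher in COV362, where the change of 0.46 ± 0.13 was not called (edgeR adjusted p = 0.134), and all lower in PEO1. The difference was -1.24 ± 0.19 (adjusted p = 0.00374). PLK1, a kinase of mitotic entry, fell in PEO1 from 175, 175 and 177 CPM to 81.2, 90.5 and 96.2 and read 113, 118 and 132 and then 131, 115 and 132 in COV362, a difference of -1.03 ± 0.16 (adjusted p = 0.00444). With KIF20A they were the 3 calls of 35 G2/M genes, a share of 8.57% that is near the 6.10% of all genes, and the list's median difference was -0.07. The KIF20A call held in 3 of the 12 fits.

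In the list of 40 E2F targets and replication genes 4 were higher in PEO1 (E2F7, ORC6, RRM2 and GINS1) and 3 were lower (LIG1, POLD1 and MCM5), 17.5% of the list against 6.10% of all genes. RRM2, a subunit of ribonucleotide reductase, read 499, 423 and 427 CPM and then 352, 378 and 330 in COV362, and 624, 652 and 589 and then 901, 880 and 881 in PEO1. Treated libraries were below the DMSO ones in COV362, without a call (edgeR adjusted p = 0.198), and above them in PEO1. Its difference was 0.86 ± 0.16 (adjusted p = 0.00933). MCM5, a subunit of the replicative helicase, was at 96.7 to 132 CPM in COV362 and went from 84.6, 87.8 and 103 to 44.7, 47.2 and 53.9 in PEO1 (difference -0.99 ± 0.20, adjusted p = 0.0154). The other 5 calls did not hold in all 12 fits.

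Homologous recombination and Fanconi anemia genes had 3 calls among 35, a share of 8.57% that is near the 6.10% of all genes. BRCA2, a core protein of homologous recombination, was higher in PEO1: it read 10.4, 21.5 and 16.3 CPM and then 5.98, 19.0 and 11.9 in COV362, and 2.42, 5.65 and 6.65 and then 17.8, 20.3 and 16.3 in PEO1. The difference of 2.27 ± 0.56 (edgeR adjusted p = 0.0336) held in 3 of the 12 fits and reached an adjusted p of 0.0855 without PEO1 prexasertib B. Its A library was the lowest DMSO library in each line. RAD54L, a motor protein of strand exchange, was lower by -0.76 ± 0.18, and its call held in 8 of the 12 fits. The difference was positive in 26 of the 35 genes (74.3%, against 51.9% of all tested genes), with a median of 0.28 beside 0.03 over all genes. The list's median log2 change was -0.30 in COV362 and -0.04 in PEO1, where 2 of the 35 rose and 6 fell.

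All 4 calls among 25 p53 targets were higher in PEO1: BTG2, CDKN1A, GADD45A and ZMAT3 (16% of the list, against 3.14% of all genes in that direction). BTG2, an antiproliferative gene, read 10.6, 10.5 and 10.6 CPM and then 8.44, 6.85 and 5.003 in COV362 and rose from 7.57, 7.71 and 5.28 to 17.9, 18.6 and 19.1 in PEO1. Its difference was 2.09 ± 0.30 (edgeR adjusted p = 0.00301). CDKN1A, which encodes the CDK inhibitor p21, rose from 4.96, 6.57 and 8.73 CPM to 18.8, 19.4 and 21.9 in COV362 and from 6.66, 5.48 and 8.08 to 65.6, 44.0 and 48.0 in PEO1, a difference of 1.41 ± 0.31 (adjusted p = 0.0213). That call was lost without COV362 DMSO C, PEO1 DMSO A, PEO1 DMSO B or PEO1 prexasertib A. The ZMAT3 call held in 3 of the 12 fits. The p53 list median was 0.17.

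The 3 calls among 27 apoptosis genes were also higher in PEO1: PMAIP1, MCL1 and CYCS (11.1% of the list, against 3.14% of all genes in that direction). MCL1, a survival protein of the BCL2 family, was at 353 to 429 CPM in COV362 and rose from 249, 264 and 246 to 496, 484 and 482 in PEO1 (difference 0.90 ± 0.15, edgeR adjusted p = 0.00600). PMAIP1, which encodes the MCL1 antagonist NOXA, rose in PEO1 from 64.6, 71.0 and 81.6 CPM to 355, 289 and 312 and read 14.9, 21.0 and 24.3 and then 26.3, 41.5 and 42.1 in COV362. Its difference of 1.28 ± 0.28 (adjusted p = 0.0199) held in 8 of the 12 fits, and the CYCS call in 5. The members called thus include both a protector and its antagonist.

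Metabolic lists had negative medians. Of 27 cholesterol and fatty acid synthesis genes 13 fell in PEO1 and 1 in COV362, beside 14.6% and 0.221% of all tested genes. In the difference 4 were called (DHCR7 and MVD among them), all lower in PEO1 (14.8%, against 2.97% of all genes in that direction). The difference was positive in 4 of the 27, with a median of -0.45. DHCR7, the last enzyme of cholesterol synthesis, read 68.4, 71.7 and 67.6 CPM and then 67.1, 60.5 and 76.6 in COV362, and 153, 169 and 168 and then 78.4, 86.2 and 94.1 in PEO1. The PEO1 groups were apart and the COV362 groups overlapped, with a difference of -0.90 ± 0.17 (edgeR adjusted p = 0.0117). The MVD call held in 1 of the 12 fits. Glycolysis and hypoxia genes had 3 lower calls (HK1, SLC2A1 and PFKP) and 1 higher (PFKFB3) among 28 (14.3%, against 6.10% of all genes). Their median was -0.31, and of these calls that of HK1, a hexokinase, held in all 12 fits (-0.75 ± 0.16).

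Among 28 genes of the mitochondrial respiratory chain 0 were called in the difference by edgeR, and SDHA had the lowest p (-0.46, 95% interval -0.79 to -0.13, adjusted p = 0.0872). The list of 18 TGF-beta, ID and SMAD feedback genes had 5 calls, 3 higher and 2 lower in PEO1 (27.8%, against 6.10% of all genes). ID2, an inhibitor of differentiation factors, was higher by 1.85 ± 0.35, and SMAD3 and LTBP2 were lower by -0.68 ± 0.14 and -1.21 ± 0.25. BMP4 and HES1 were also higher, and their calls held in 9 and 8 of the 12 fits. DNAJB9, an endoplasmic reticulum chaperone, was higher by 1.15 ± 0.22. It was among 4 calls, 2 higher and 2 lower, of 27 ATF4 and unfolded protein response genes (14.8%, against 6.10% of all genes). The 16 MHC class I genes had a median of -0.48 and 3 calls (18.8%, against 6.10% of all genes). PSMB8 and PSMB9, subunits of the immunoproteasome, were lower and HLA-E, which presents peptides to natural killer cells, was higher. Of these calls that of PSMB8 alone held in all 12 fits. Over all 25 lists, chosen with earlier results of these data known, 92 of 610 tested genes were called, beside 885 of all 14498 tested genes. Of the 92, 46 were called in every fit that left out 1 library.

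**Figure D4:**
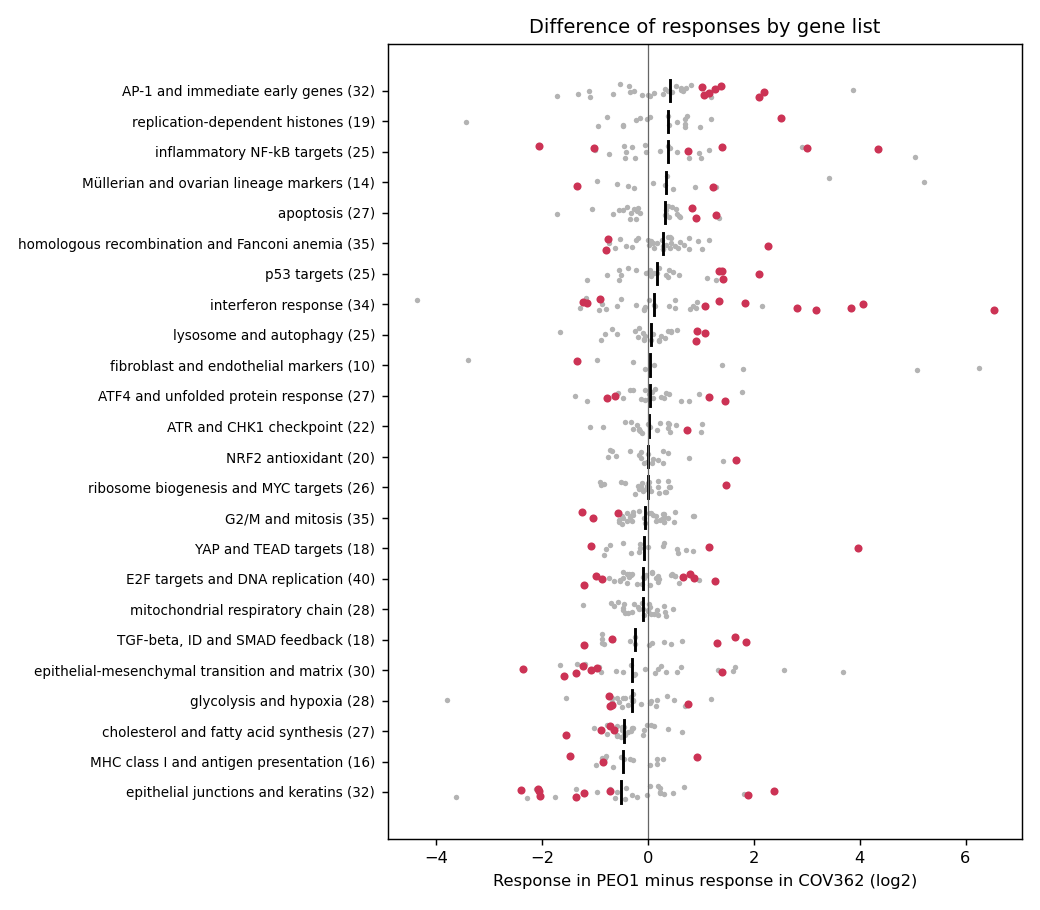
Difference of responses (log2, PEO1 minus COV362) of each tested member of the 24 lists with at least 10 tested genes; red points passed an adjusted p of 0.05, grey points did not, and the black bar is the list median. Medians run from -0.51 for the epithelial list to 0.42 for the AP-1 list, and called interferon members lie on both sides of 0.

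Responses confined by the calls to COV362 were few. RGL1, an exchange factor for Ral proteins, fell in COV362 from 33.5, 46.1 and 28.5 CPM to 14.6, 16.3 and 17.4. In PEO1 RGL1 read 2.74, 2.06 and 2.64 with DMSO and 3.46, 3.63 and 2.84 with prexasertib, all higher but without a call, and the difference was 1.59 ± 0.30 (edgeR adjusted p = 0.0113). BHLHE40, a repressor linked to the circadian clock and hypoxia, rose in COV362 from 44.3, 43.7 and 44.6 CPM to 73.7, 75.5 and 67.3. Its PEO1 values were 120, 122 and 118 with DMSO and 116, 109 and 110 with prexasertib, with a change of -0.10 ± 0.10 (adjusted p = 0.490). The difference for BHLHE40 was -0.81 ± 0.15 (adjusted p = 0.00884).

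The antisense gene CAPN10-AS1 rose in COV362 from 0.121, 0.712 and 0.782 CPM to 4.18, 3.27 and 3.30 and stayed at 1.59 to 2.42 in PEO1. These libraries do not mark strand, so its reads and those of its partner gene cannot be told apart. RGL1, BHLHE40 and CAPN10-AS1 kept their call in the difference in all 12 fits. The others were MYPN, DIAPH3, TMEM100, MAP2 and MTSS1, and their calls held in 6, 3, 5, 9 and 2 of the 12 fits. TMEM100 had 0 counts in PEO1 with DMSO, so its difference has no usable size. Of the 120 genes called in COV362, 81 were not called in the difference, and 66 of the 92 genes called in both lines in the same direction were not either.

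Promoters were compared without a test. RefSeq promoters of 300 bases, 250 before to 50 after the start, were matched to 701 of the 885 genes. The NF-kB motif GGANTTTCC, searched on both strands, was in 1.65% of the 10938 matched genes tested and in 1.64% of all promoters of the table. It was in 4.37% of those of genes higher in PEO1 (16 of 366), 12.1% of those higher by at least 4-fold (8 of 66) and 0.597% of those lower (2 of 335). The 8 genes were BRCA2, BTG2, CXCL10, CXCL11, CXCL8, NF2, TNFRSF9 and ZNF442. With 1 library left out, calls held in 3 of 12 fits for BRCA2 and 4 for CXCL11. Those of BTG2, CXCL10 and CXCL8 held in all 12. The AP-1 motif TGANTCA was in 4.58% of tested genes and 7.76% of all promoters, and in 7.10% of the higher genes, 12.1% of those higher by at least 4-fold and 4.78% of the lower genes. Motifs differ in base content and the classes differ too: the median GC content was 62.7% for promoters of higher genes, 71.0% for lower genes and 65.3% for the rest, and its part in these shares was not tested. Median exon length was 4173 bases for higher genes, 3257 for lower genes and 3274 for the rest.

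**Figure D5:**
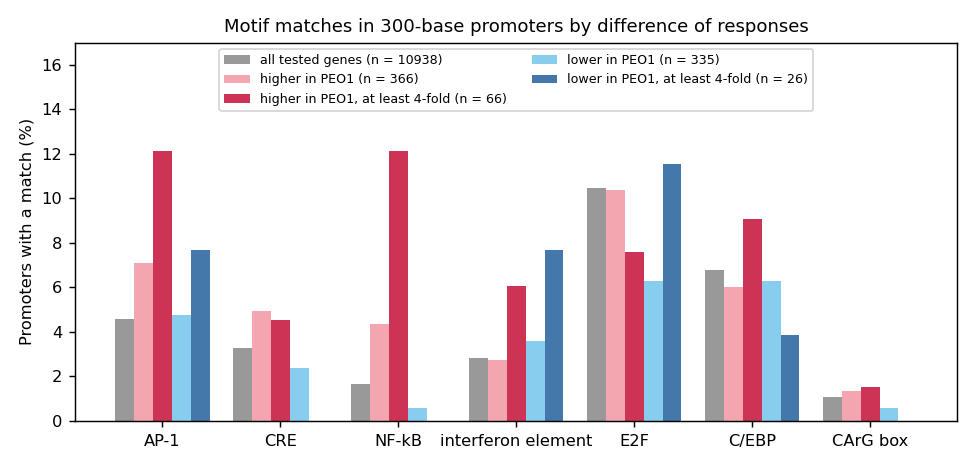
Share of 300-base RefSeq promoters (y axis, percent) that hold each of 7 motifs, for all tested genes and for genes whose response was higher or lower in PEO1, at any size or by at least 4-fold. The NF-kB bar for genes higher by at least 4-fold reaches 12.1%, against 1.65% for all tested genes. It is at 0 for genes lower by at least 4-fold, a small set of 26 promoters.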

How the data were processed

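The authors deposited 1 table of raw read counts per gene for 12 libraries, with gene positions and exon length. Per the labels' protocols, RNA was purified on RNeasy columns, and the TruSeq RNA kit (v2) was used, which does not mark strand. The submitters' processing notes name STAR, Subread, featureCounts 1.4.6 and hg38, without their roles. Genes were kept with edgeR 4.0.16 filterByExpr (minimum count 10, total 15) and scaled by TMM. A quasi-likelihood fit in R 4.3.3 with 4 group means (8 residual degrees of freedom) gave each line's response and their difference, with Benjamini-Hochberg adjustment over the 14498 tested genes and a call at an adjusted p under 0.05. SE is the log2 change over the root of its F statistic. The fit was also run on simulated counts, drawn independently for each library with no effect of letter or exon length. That run does not bear on such effects. CPM use TMM-scaled totals, and intervals cover the spread between libraries.

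Named genes were the 8 highest and 8 lowest differences at 5 CPM or more in each line, up to 12 opposite genes, up to 6 larger in each line, up to 8 called in COV362 only, up to 3 called members per list (or the lowest p) and a few genes always shown. Others, such as NPR3, OASL, SPARC, KRT8, CCL5 and RRM2, come from the classes or lists and were chosen after their values were seen. The members and the 25 lists were chosen with earlier results of these data known. Alternatives were DESeq2 1.42.0, limma-voom (limma 3.58.1), other scaling and filters, exon length offsets, the letters as a block and libraries left out. Library A of each group is shorter-gene biased, so the letters were checked for pairing. The split of promoters at 4-fold was chosen after seeing the data. Genes with several positions (476 tested) and 28 symbols turned into dates were left out of the rules for named genes. The lists did not apply that limit, and PSMB8, PSMB9 and HLA-E were named from their list without it. A few genes are not reported here.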

Additional observations from a re-analysis of the deposited data

Results flagged for a closer look

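The test of the difference itself marked 885 genes as responding differently in the 2 lines (edgeR, adjusted p under 0.05). In 5 of these, both lines were called and moved in opposite directions. Their log2 differences were 2.38 for EHF, 1.25 for SOX4, -2.1 for LSR and -1.37 for FHL2. Each had all 3 treated libraries on opposite sides of the DMSO libraries in the 2 lines. Treated and DMSO libraries did not overlap for 50.1% of all tested genes in PEO1 and 14.5% in COV362. Over the 12 fits that left out 1 library, opposite calls held in 11 for FHL2, 10 for EHF and LSR and 2 for SOX4 and NPR3, and at an adjusted p under 0.01 for 0 of the 5. The remaining gene is NPR3, whose COV362 call rests on 21 counts.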

How the results depend on the processing

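Counts are given as higher in PEO1, lower in PEO1, opposite, same direction larger in PEO1, same direction larger in COV362, called in COV362 and called in PEO1 (455, 430, 5, 26, 0, 120 and 4249 as reported). DESeq2 gave 847, 1119, 23, 88, 3 and 533, with PEO1 within 1.5 times. Exon length offsets gave 690, 948, 11, 48 and, in COV362, 246. The letters as a replicate block common to both lines gave 2192, 2027, 119, 229, 8, 1399 and 6926, a replicate block within each line gave 2586, 2320, 236, 339, 16, 1977 and 7446, and length offsets with the common block gave 2004, 2396, 117, 327, 12, 1548 and 7272. The letters were not taken as pairing, because the lowest correlation of same-letter deviations within a line, that of PEO1 C, was 0.0813, below 0.1 (the highest was 0.423), while 9 of 12 libraries correlated best with their own letter. An adjusted p under 0.01 gave 91, 66, 0, 10, 0, 35 and 2319. Without all 4 A libraries there were 12 opposite genes, 56 larger in PEO1, 1 larger in COV362 and 330 called in COV362, and limma-voom had 1 larger in COV362. Leaving out 1 library gave 144 to 786 higher, 169 to 970 lower, 0 to 6 opposite, 11 to 30 larger in PEO1, 0 to 0 larger in COV362, 27 to 128 called in COV362 and 3011 to 5053 in PEO1. The cause of these shifts was not tested, apart from the stricter threshold, which lowers counts by construction. Size factors of DESeq2 in edgeR gave 411 higher and 530 lower, with 840 of the 885 kept. Without a filter there were 351 higher and 587 lower, with 703 kept. A minimum of 1 CPM in both lines gave 502 higher and 487 lower, with 835 kept. The counts of these 3 alternatives stayed within 1.5 times. Without all 4 A libraries 625 of the 885 (70.6%) kept their call. Under every alternative, no gene of the 885 that kept its call changed sign, and genes that lost their call were not part of that count. A kept call leaves little room for a change of sign. Of 76 named genes called, 42 were called in each fit that left out 1 library. Differences of genes near 0 in a group are limited by counts.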

Other observations

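The 36 genes called in the difference but in neither line alone included IRF1, a transcription factor of the interferon system, CDK6, a kinase of G1, and the WNT ligand gene WNT11. IRF1 had a log2 change of 0.60 in COV362 and -0.31 in PEO1, CDK6 -0.41 and 0.35, and WNT11 -1.12 and 0.81. Of the 36, 22 were higher and 14 lower in PEO1. The calls of IRF1, CDK6 and WNT11 held in 6, 3 and 4 of the 12 fits that left out 1 library.

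Of the 885 genes, 24 were under 1 CPM in each group of COV362 and 29 in each group of PEO1.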
